A study of Homo sapiens with 95 samples.

Results

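The genes described here are the 3 D cyclins CCND1, CCND2 and CCND3, their kinase partners CDK4 and CDK6, the RB family genes RB1, RBL1 and RBL2, and 2 inhibitors of the cyclin D kinases, CDKN2C and CDKN1B. These 10 genes, of 27978 listed, were chosen by symbol and followed in all 95 samples. The group was selected on the strong difference in CCND2 between lines, so the CCND2 levels by line are a description and carry no test.

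D cyclins bind CDK4 or CDK6, and the active kinases phosphorylate the pocket proteins pRB, p107 and p130, which RB1, RBL1 and RBL2 encode. In their unphosphorylated form the pocket proteins hold E2F transcription factors inactive, and their phosphorylation lets cells pass from G1 into S phase. CDKN2C encodes p18, an inhibitor of the same class as the p16 product of CDKN2A that binds CDK4 and CDK6, while CDKN1B encodes p27, which inhibits cyclin E-CDK2 and also binds cyclin D complexes. In airway epithelium this axis takes part in controlling the division of basal cells. In AALE cells the SV40 early region used to immortalize them includes large T antigen, a protein that binds the pocket proteins.

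Sparse full length sequencing (SFL), a pooled and barcoded RNA-seq method based on depletion of ribosomal RNA, was used to profile AALE cells, human bronchial epithelium that was immortalized in culture. Each sample carried 1 of 8 genotypes and received 1 of 4 chemicals. The lines labelled FAT1 and CDKN2A are CRISPR knockouts, and their control, labelled GFP, received the Cas9 and EGFP plasmid without guide RNAs. The lines labelled NRF2 (gene NFE2L2), FGFR1, NRG1 and PIK3CA overexpress those genes, and their control, labelled HCRED, carries a vector with the reporter HcRed. The chemicals were cigarette smoke condensate (CSC, 24 μg/ml), benzo(a)pyrene (BaP, 173 μM), the tobacco nitrosamine NNK (490 μM) and the solvent DMSO, added to confluent cells in multiwell plates. Groups of line and chemical held 3 samples (31 groups) or, for FGFR1 with CSC, 2, which gives 12 samples per line and 11 for FGFR1. The labels name no allele for the overexpressed genes, do not say whether a knockout line is a clone or a pool, and do not say that replicates came from separate cultures. The p-values therefore measure the spread between these samples, and the effect of a genotype and the history of the 1 line that carries it cannot be told apart.

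The deposited counts summed to between 287446 and 2116383 reads per sample (median 934235), so that 3 counts stand at 1.42 to 10.4 CPM of the unscaled library. All other levels are CPM of the library size scaled by TMM, a factor that accounts for differences in composition. All 10 markers of basal airway epithelium fixed for this check were detected, among them KRT5 with 865 to 5898 counts and TP63 with 59 to 454. The defining markers of leukocytes, endothelium, ciliated cells and secretory cells were at or near 0, with at most 2 counts of PTPRC and PECAM1 and 4 of DNAI1, while CD68 had 0 to 62 counts and the fibroblast gene COL1A1 had 5 to 78. Each of the 6 perturbed genes differed from its control in the direction of its label, with no overlap between the 12 or 11 samples of the line and its control. FAT1 itself was at 67.4 to 128 CPM in its knockout line against 258 to 447 CPM with GFP, and CDKN2A was at 34.7 to 67.1 CPM against 78.3 to 148, so both knockout lines still had reads of the targeted gene. The libraries differed in how their counts followed the GC content of the genes. Spearman's rho between a sample's deviation from the mean log2 CPM and GC content, over 9637 genes, was between -0.67 and -0.23 in the 24 DMSO-treated samples, -0.31 and 0.49 with BaP, -0.18 and 0.46 with NNK, and -0.00 and 0.58 with CSC. This matters for the chemicals and is taken up there. The RNA is from whole wells, so fewer cells and less RNA per cell cannot be told apart.

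On GRCh37, CCND1 lies at chr11:69455924-69469242, CCND2 at chr12:4378937-4414519 and CCND3 at chr6:41902672-42018095. CDK4 lies at chr12:58141510-58149796 and CDK6 at chr7:92234235-92465887. RB1 lies at chr13:48877880-49173572, RBL1 at chr20:35624752-35724400 and RBL2 at chr16:53467889-53525560. CDKN2C lies at chr1:51426417-51440306 and CDKN1B at chr12:12838432-12875303. All are protein coding, and reads were counted over their exons. The canonical transcripts differ in length from 995 bases for CDKN2C to 11663 for CDK6, and in GC content from 37.1% for RB1 to 60% for CCND3. CDK4 shares 1369 exonic bases with TSPAN31 and RBL2 shares 609 with AKTIP, in both cases on the opposite strand, and the sources used here do not state a strand setting, so reads in those stretches may belong to either gene. CCND2 shares 162 bases with CCND2-AS1, which had 0 to 2 counts in any sample.

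Promoter sequences are shown for 3 members whose RNA went in opposite directions: CDK4 and RBL1, which were higher and lower with each chemical as counted, and CDKN1B, which was higher in one knockout line and lower in the other. They are the 250 bases before the RefSeq start on GRCh38.p14, for CDK4 on the minus strand at chr12:57752311-57752560, for RBL1 on the minus strand at chr20:37095998-37096247 and for CDKN1B on the plus strand at chr12:12717118-12717367, written 5′ to 3′ along the gene. RefSeq promoters matched 8 of the 10 members. Capitals mark every match, on either strand, to 4 motifs, none of which overlap here. These are the E2F motif TTTNNCGC, the box named for its letters CCAAT, the E-box CACGTG, which MYC binds among others, and the GC box GGGCGG.
CDK4: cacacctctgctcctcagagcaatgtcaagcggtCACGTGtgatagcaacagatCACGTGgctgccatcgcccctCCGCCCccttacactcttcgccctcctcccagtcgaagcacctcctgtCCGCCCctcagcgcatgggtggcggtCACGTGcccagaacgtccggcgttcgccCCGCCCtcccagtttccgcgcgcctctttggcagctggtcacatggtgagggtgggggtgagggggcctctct
RBL1: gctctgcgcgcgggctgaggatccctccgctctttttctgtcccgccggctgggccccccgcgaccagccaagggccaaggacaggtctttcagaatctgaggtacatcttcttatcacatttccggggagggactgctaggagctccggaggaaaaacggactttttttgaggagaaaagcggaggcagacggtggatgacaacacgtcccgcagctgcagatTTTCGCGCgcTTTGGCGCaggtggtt
CDKN1B: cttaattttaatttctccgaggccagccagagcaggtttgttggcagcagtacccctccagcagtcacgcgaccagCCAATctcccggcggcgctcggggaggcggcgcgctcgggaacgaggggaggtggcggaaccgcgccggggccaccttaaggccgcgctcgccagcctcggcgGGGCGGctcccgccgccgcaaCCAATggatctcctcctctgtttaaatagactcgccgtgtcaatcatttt
RBL1 has 2 matches to the E2F letters, which begin 26 and 16 bases before the start, and 5.92% of 35116 promoters of the same length hold at least 1. CDK4 has 3 matches to the E-box, found in 6.34% of promoters, and 3 to the GC box, found in 42.6%. CDKN1B has 2 matches to CCAAT, found in 32% of promoters, and 1 to the GC box. A match to these letters is a description and not a measured site.

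CCND2, a D cyclin with tissue-restricted expression, was nearly absent in 2 lines and abundant in the other 6. In the 12 samples of the GFP line it had 0 counts at the lowest, a median of 4.5 and 25 at the highest, and in the 12 samples of the CDKN2A line 0, 3.5 and 11. In the other 6 lines no sample had fewer than 46 counts, and the highest had 763. The ranges of CPM of these 24 and 71 samples did not overlap, with 0 to 19.2 CPM in the former and 75.1 to 392 in the latter. The low lines are one of the 2 control lines and one of the 2 knockout lines, while the FAT1 knockout line, which shares the GFP control, had 145, 185 and 221 CPM (lowest, median, highest).

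Among the lines with CCND2, the order of the medians was NRF2 (106 CPM, range 75.1 to 165), HCRED (134, range 97.9 to 178), NRG1 (174, range 155 to 225), FAT1 (185, range 145 to 221), FGFR1 (308, range 275 to 367) and PIK3CA (354, range 295 to 392). Neighbours in this order overlapped, except that each sample of FGFR1 and PIK3CA was above each sample of FAT1 and of the 3 lines before it. PIK3CA and FGFR1 were thus above the HCRED control they share, with no overlap. The difference between the highest and lowest line medians, PIK3CA and CDKN2A, was 5.88 on the log2 CPM scale, and it depends on the prior count because the CDKN2A line is near 0 (6.31 with a prior count of 0.5 in place of 2). The same pattern was seen under each chemical: in mean log2 CPM the FAT1 line exceeded GFP by 3.87 with DMSO, 4.78 with CSC, 5.04 with BaP and 4.83 with NNK.

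**Figure D1:**
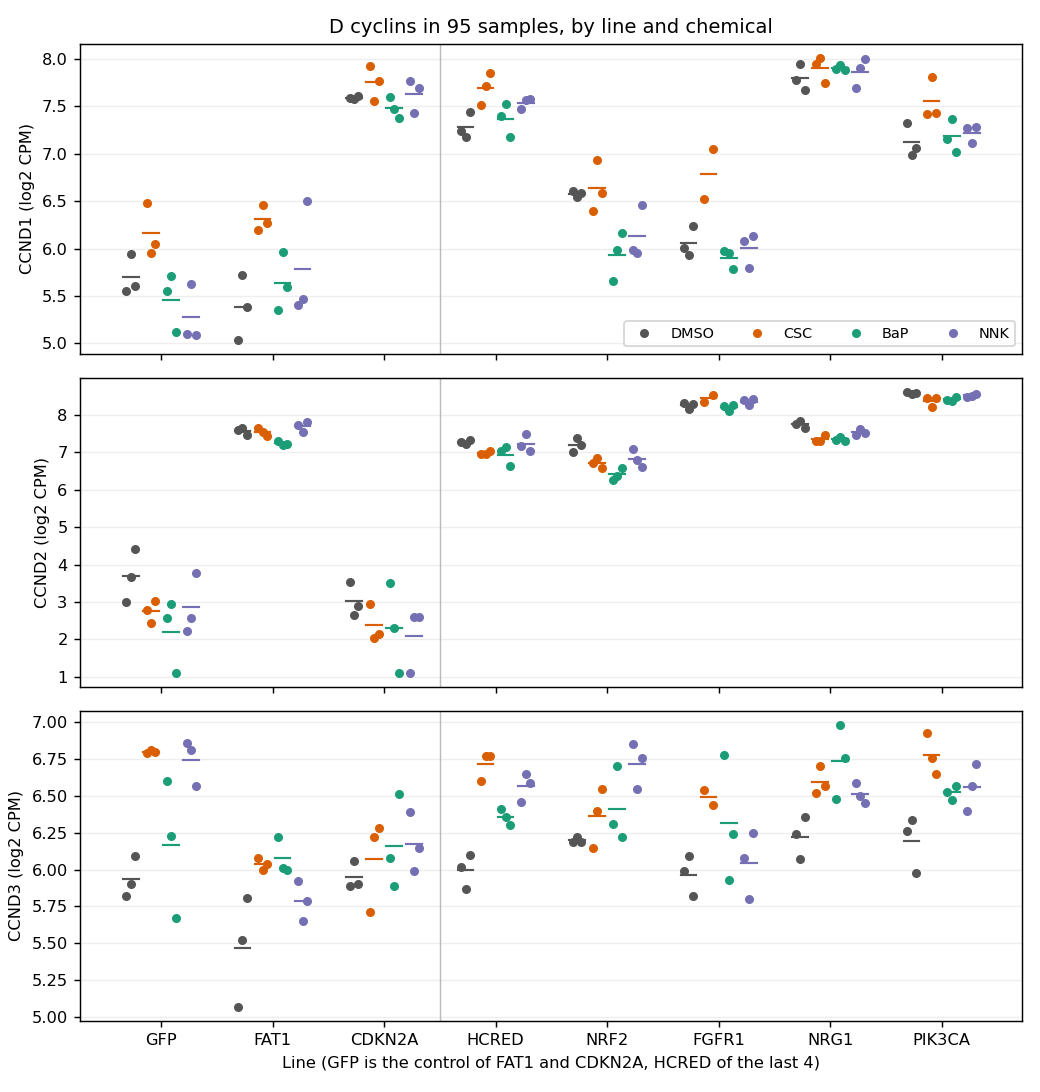
Log2 CPM of CCND1, CCND2 and CCND3 in each of the 95 samples (points), by line along the horizontal axis and by chemical (colour), with short bars at the mean of each group of 3 (2 for CSC-treated FGFR1). CCND2 lies at or below 19.2 CPM in each GFP and CDKN2A sample and at or above 75.1 CPM in the others, while CCND1 has its lowest medians in GFP, FAT1, FGFR1 and NRF2.

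Among the 10061 other genes whose mean count reached 10, those whose mean log2 CPM over the 32 combinations followed that of CCND2 most closely were DCTN5 and LDHB (Pearson's r = 0.93 for each), JPT2 (0.92), and UQCRC2 and ZNFX1 (0.91 for each). The 32 points share 8 lines, so these correlations mostly carry the difference between lines and are given as a description. None of these genes was near 0 in the GFP and CDKN2A lines, where DCTN5, for example, had 19 to 129 counts against 36 to 293 in the other lines. Only for JPT2 among the 5 did the CPM of the 24 and 71 samples not overlap.

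CCND1, the D cyclin most often amplified in squamous tumours, differed from its control line in 5 of the 6 engineered lines. Its median was lowest in GFP (47.0 CPM, range 32 to 87.3) and FAT1 (48.5, range 30.7 to 88.5), then FGFR1 (62.4, range 53.1 to 130) and NRF2 (84.3, range 48.5 to 120). It was higher in PIK3CA (153, range 125 to 222), HCRED (177, range 143 to 229), CDKN2A (192, range 164 to 242) and NRG1 (237, range 202 to 255). Neighbours in this order overlapped except NRF2 and PIK3CA, although 1 FGFR1 sample at 130 CPM lay inside the PIK3CA range.

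In the CDKN2A line CCND1 was 3.78-fold higher than in GFP (log2 fold change 1.92 ± 0.09 SE, adjusted p = 6.53e-30), with no overlap between the lines and a higher mean under each of the 4 chemicals. It fell by 1.15 (log2, SE 0.08, adjusted p = 2.99e-20) in NRF2 and by 1.22 (SE 0.08, adjusted p = 2.16e-20) in FGFR1 against HCRED, again with no overlap. In mean log2 CPM the differences with DMSO, CSC, BaP and NNK were -0.71, -1.05, -1.43 and -1.41 in NRF2. In FGFR1 they were -1.22, -0.91, -1.47 and -1.54. The difference over the 4 chemicals was smaller in NRG1 (0.39 ± 0.06 SE, adjusted p = 6.62e-07) and PIK3CA (-0.23 ± 0.06 SE, adjusted p = 0.00175), where the ranges overlapped the control's. With DMSO alone the PIK3CA difference did not pass (-0.19, adjusted p = 0.356). In FAT1 the log2 fold change against GFP over the 4 chemicals was 0.06 (SE 0.11, adjusted p = 0.676). This pools differences in mean log2 CPM of -0.32 with DMSO, 0.15 with CSC, 0.18 with BaP and 0.52 with NNK, and the fit to DMSO alone gave -0.37 (adjusted p = 0.15). The 2 control lines themselves differed, with no overlap: CCND1 was 3.38-fold lower in GFP than in HCRED (log2 fold change -1.75 ± 0.09 SE, adjusted p = 2.08e-31).

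CCND3, the most widely expressed D cyclin, varied less. Its line medians were lowest in FAT1, whose samples ran from 31.4 to 72.4 CPM, and highest in GFP, at 48.8 to 114 (median 94.1), and each pair of neighbours in the order overlapped. It fell by 0.64 (log2, SE 0.10, adjusted p = 2.47e-08) in FAT1 and by 0.40 (SE 0.09, adjusted p = 0.000207) in CDKN2A against GFP, the latter not with DMSO alone (-0.02, adjusted p = 0.947). In FGFR1 the difference from HCRED was -0.24 (SE 0.08, adjusted p = 0.0361), a call that was lost in 6 alternatives, among them edgeR (adjusted p = 0.0533) and DMSO alone (-0.05, adjusted p = 0.938). NRF2, NRG1, PIK3CA and the comparison of both controls gave log2 fold changes between -0.01 and 0.11 that did not pass. After the correction for GC content and transcript length described with the chemicals, the value in GFP versus HCRED went from 0.05 to 0.19 and passed (adjusted p = 0.0371).

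Per kb of canonical transcript, which allows genes to be set side by side, the medians of the 10 members over the 95 samples ran from 19.9 CPM per kb for CDK6 to 46.7 for CDKN2C, with CCND1 at 30.0, CCND2 at 23.9 and CCND3 at 37.8. The make-up of the D cyclin RNA ranged widely between some lines, while HCRED and NRG1 overlapped in the share of each of the 3 genes. In GFP, CCND3 held 64.5 to 87.6% of the summed D cyclin CPM per kb (median 76.4%), and CCND2 held 0 to 6.34%. By median, CCND1 held the most in the CDKN2A line (46.8 to 69.0%, median 57.6%) and in NRG1 (39.6 to 46.4%, median 43.0%). CCND2 did in FGFR1 (40.6 to 54.5%, median 49.5%) and in PIK3CA (30.3 to 49.0%, median 40.8%). CCND3 reached 53.2% in CDKN2A and 46.8% in FGFR1, so it held the most in single samples. The summed level had medians of 56.7 CPM per kb in GFP, 68.2 in FAT1, 78.2 in NRF2, 79.5 in CDKN2A, 95.6 in FGFR1, 105 in HCRED, 125 in NRG1 and 133 in PIK3CA. The CCND2 part of these values was chosen by the selection of the group, and they carry no test.

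**Figure D2:**
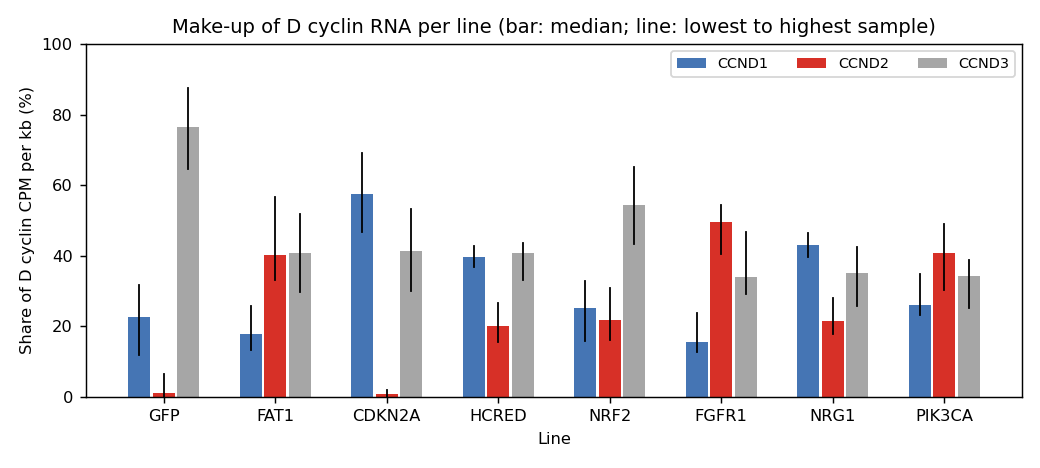
Share of each D cyclin in the summed CPM per kb of CCND1, CCND2 and CCND3 (vertical axis, %), by line. Bars give the median of 12 samples (11 for FGFR1) and black lines run from the lowest to the highest sample. CCND3 holds 76.4% in GFP, CCND1 57.6% in CDKN2A and CCND2 49.5% in FGFR1. CCND1 is also the largest by median in NRG1 (43.0%), and CCND2 in PIK3CA (40.8%).

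CDK6 had its lowest median in the CDKN2A line. It had 90.7, 119 and 173 CPM (lowest, median, highest) there against 231, 261 and 360 in GFP, a 2.27-fold difference with no overlap (log2 fold change -1.18 ± 0.06 SE, adjusted p = 6.51e-29). It was also lower in FAT1 (log2 fold change -0.36 ± 0.05 SE, adjusted p = 4.02e-09), and by smaller steps in NRF2 (-0.24 ± 0.06 SE, adjusted p = 0.000909) and FGFR1 (-0.19 ± 0.06 SE, adjusted p = 0.0132). With DMSO alone the NRF2 and FGFR1 differences did not pass (-0.20, adjusted p = 0.173, and -0.13, adjusted p = 0.562). GFP itself exceeded HCRED in CDK6 by 0.18 ± 0.05 SE (adjusted p = 0.00217). That call was lost in 3 alternatives, among them DMSO alone (0.22, adjusted p = 0.0557) and the correction for GC content (0.06, adjusted p = 0.314). CDK4 varied less, with line medians from 48.4 CPM in CDKN2A to 76.7 in PIK3CA and overlap between all neighbours in the order. It was higher in PIK3CA than in HCRED (log2 fold change 0.31 ± 0.08 SE, adjusted p = 0.00204) and lower in CDKN2A than in GFP (-0.25 ± 0.10 SE, adjusted p = 0.0257). The latter call was lost in 5 alternatives: DESeq2, no filter on low counts, without replicate 2, without replicate 3, and DMSO alone (-0.14, adjusted p = 0.605). The PIK3CA call was lost without replicate 2 (0.25) and with DMSO alone (0.24, adjusted p = 0.46). Per kb of transcript, the log2 ratio of CDK6 to CDK4 had a median of -0.73 over the 95 samples (range -2.19 to 0.49), of -1.28 in the CDKN2A line and of -0.40 in GFP.

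RB1, the retinoblastoma tumour suppressor, was highest in the GFP control line. It had 270, 334 and 409 CPM (lowest, median, highest) in GFP, 119, 171 and 189 in CDKN2A, and 155, 205 and 275 in FAT1. RB1 was thus 2.09-fold lower in CDKN2A (log2 fold change -1.07 ± 0.06 SE, adjusted p = 4.06e-26), with no overlap, and 1.56-fold lower in FAT1 (-0.65 ± 0.05 SE, adjusted p = 9.59e-19), where the highest sample exceeded the lowest of GFP. GFP was itself above HCRED (log2 fold change 0.58 ± 0.05 SE, adjusted p = 1.22e-17), whose samples had 186, 228 and 271 CPM. The overexpression lines stayed close to HCRED, with log2 fold changes between -0.20 and -0.13, of which FGFR1 (adjusted p = 0.0247) and PIK3CA (adjusted p = 0.00228) passed the test. The FGFR1 call was lost in 3 alternatives and the PIK3CA call in 2. Among them was the fit to DMSO alone (-0.09, adjusted p = 0.768, and -0.10, adjusted p = 0.576).

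RBL1, which encodes p107 and is itself a known E2F target, was lowest in CDKN2A (126, 148 and 197 CPM) and highest in NRF2 (295, 329 and 385 CPM). It was 1.53-fold lower in CDKN2A than in GFP (log2 fold change -0.62 ± 0.05 SE, adjusted p = 3.86e-16), with no overlap. It was 1.34-fold higher in NRF2 than in HCRED (0.42 ± 0.05 SE, adjusted p = 8.75e-11) and higher in PIK3CA (0.19 ± 0.05 SE, adjusted p = 0.000982). With DMSO alone the PIK3CA difference did not pass (0.18, adjusted p = 0.19). In FAT1 the log2 fold change of -0.14 (SE 0.05, adjusted p = 0.0224) was lost after the correction for GC content (-0.03, adjusted p = 0.646).

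RBL2, which encodes p130, the pocket protein of resting cells, was highest in GFP (137, 170 and 197 CPM). It was lower in CDKN2A (98.7, 116 and 135 CPM, log2 fold change -0.50 ± 0.06 SE, adjusted p = 6.41e-10), with no overlap, and in FAT1 (108, 122 and 173 CPM, -0.40 ± 0.07 SE, adjusted p = 9.99e-07). GFP exceeded HCRED (76.6, 111 and 143 CPM) by 0.56 ± 0.07 SE (adjusted p = 4.13e-11). In the 4 overexpression lines it did not pass the test, with log2 fold changes between -0.14 and 0.16.

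CDKN1B moved in opposite directions in the 2 knockout lines. It had 43.5, 56.7 and 83.6 CPM in GFP, 22.1, 30.5 and 41.1 in CDKN2A, and in FAT1 the lowest sample had 68.1 and the median was 98.1. It was 1.89-fold lower in CDKN2A than in GFP (log2 fold change -0.92 ± 0.11 SE, adjusted p = 6.73e-11), with no overlap. It was 1.57-fold higher in FAT1 (0.65 ± 0.09 SE, adjusted p = 1.06e-09). Both comparisons share the GFP samples. The CDKN2A line did not overlap PIK3CA, the next line by median (lowest 42.2 CPM). Its highest sample did lie above the lowest of NRG1 (37.7 CPM) and of NRF2 (39.0 CPM). In the overexpression lines CDKN1B lay within 0.10 of HCRED on the log2 scale and passed no test. CDKN2C was lower than in GFP in FAT1 (-0.45 ± 0.10 SE, adjusted p = 8.81e-05) and in CDKN2A (-0.40 ± 0.10 SE, adjusted p = 0.000397). With DMSO alone neither passed (-0.35, adjusted p = 0.121, and -0.28, adjusted p = 0.185). GFP itself exceeded HCRED by 0.23 ± 0.10 SE (adjusted p = 0.0375), a call lost in 5 alternatives. CDKN2C had its highest line median in GFP, at 59.3 CPM, against 49.4 in HCRED. Its log2 fold changes in the overexpression lines, between -0.14 and 0.05, did not pass.

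**Figure D3:**
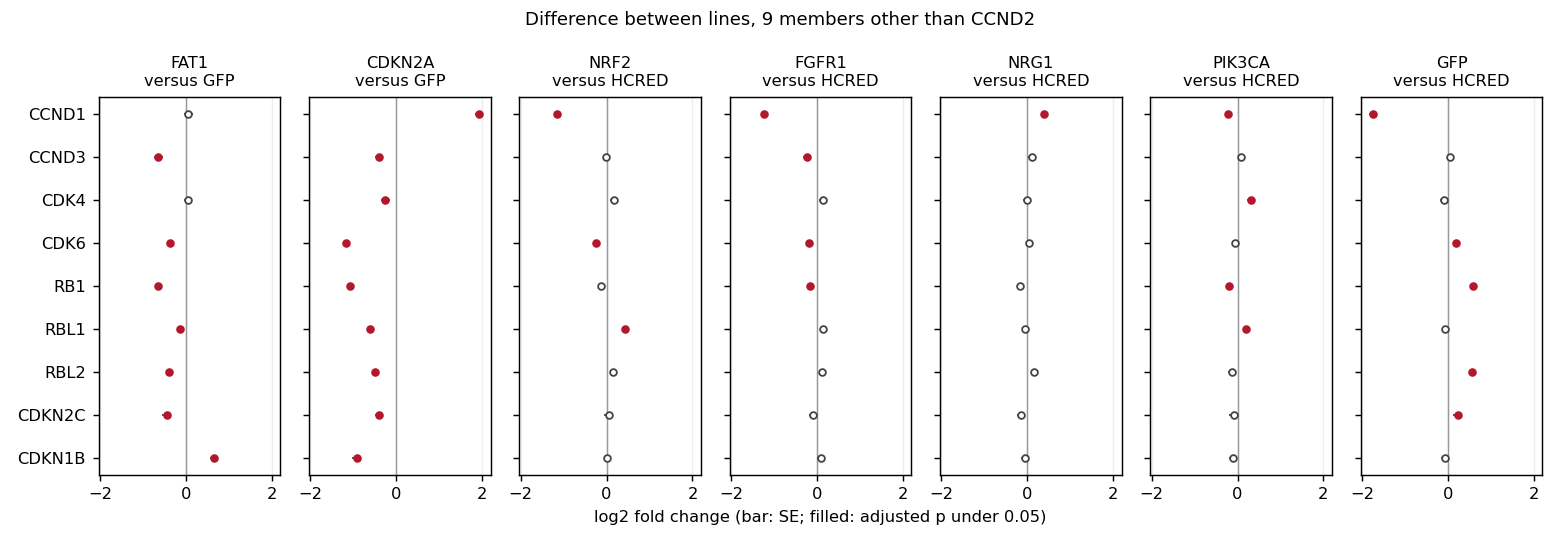
Log2 fold change (horizontal axis, ± SE) of the 9 members other than CCND2 in each comparison of lines over the 4 chemicals; filled points passed an adjusted p of 0.05. CDKN2A versus GFP has 9 filled points, 8 of them below 0, and CCND1 at 1.92; NRG1 versus HCRED has 1.

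Counted over the 9 members other than CCND2, all 9 passed the test in CDKN2A versus GFP, 8 lower and 1 higher, where 57.6% of all genes tested passed. In FAT1 versus GFP 7 passed, 6 lower and 1 higher, against 48.9% of all genes, and in GFP versus HCRED 5 passed, 4 higher and 1 lower, against 45.0%. In NRF2 versus HCRED 3 passed (2 lower, 1 higher) against 21.6%, in FGFR1 versus HCRED 4 against 13.5%, in PIK3CA versus HCRED 4 against 27.8%, and in NRG1 versus HCRED 1 against 10.8%. Without replicate 2, or without replicate 3, the count in FGFR1 fell to 1 (CCND1), and without replicate 2 that in PIK3CA fell to 2. In these refits fewer genes passed in general, 1034 of 14326 and 1245 of 14327 tested in FGFR1 and 2889 of 14291 in PIK3CA. These shares of all genes are a background for the counts, but they include genes with few reads. The 9 members had median counts over the 95 samples from 41 (CDKN2C) to 226 (RBL1). With genes kept from a mean count of 10, 6728 of 9994 passed in CDKN2A and 5719 of 9821 in FAT1. In GFP versus HCRED 5482 of 9971 then passed. In the overexpression lines the numbers were 2790 of 10002 (NRF2), 1781 of 10094 (FGFR1), 1409 of 9980 (NRG1) and 3544 of 10198 (PIK3CA). FAT1 and CDKN2A share the GFP samples and the 4 overexpression lines share the HCRED samples, so a level particular to one control moves several comparisons together.

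Among the other genes of the pathway, MYC, a transcription factor that promotes G1 entry, was higher in CDKN2A than in GFP (log2 fold change 1.66 ± 0.10 SE, adjusted p = 1.22e-24) and lower in GFP than in HCRED (-1.50 ± 0.08 SE, adjusted p = 8e-29). Of 18 G1 regulators, a list that includes CDKN2A itself, 11 passed in CDKN2A versus GFP (4 higher, 7 lower), 10 in FAT1 (6 higher, 4 lower) and 11 in GFP versus HCRED (6 higher, 5 lower). The list medians were -0.10, 0.03 and 0.18, against 0.00, 0.03 and 0.01 over all genes tested. In the same order, 57.6%, 48.9% and 45.0% of all genes tested passed in these comparisons. CDKN1C, which encodes the inhibitor p57, was the member with the largest change in FAT1 (1.26 ± 0.13 SE, adjusted p = 3.02e-13). It was higher than in HCRED in FGFR1 (0.96 ± 0.15 SE, adjusted p = 1.13e-06) and NRF2 (0.76 ± 0.15 SE, adjusted p = 8e-05) and lower in PIK3CA (-1.07 ± 0.20 SE, adjusted p = 1.4e-05) and NRG1 (-0.71 ± 0.18 SE, adjusted p = 0.00468).

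The shares of all genes tested that passed were 48.9% in FAT1, 57.6% in CDKN2A, 27.8% in PIK3CA and 45.0% in GFP versus HCRED. Of the 10 E2F and DP factors, 7 were lower and none higher in FAT1, with E2F3 (log2 fold change -0.86, adjusted p = 1.9e-11) and E2F7 (-0.67, adjusted p = 6.58e-15) the largest, and a list median of -0.30. In CDKN2A 4 were lower and 4 higher, with E2F8 (-1.35, adjusted p = 3.21e-11) and E2F2 (-0.76, adjusted p = 0.00013) the largest. Of the 20 E2F target genes, 10 were lower and 1 higher in FAT1, led by POLA1 (-1.30, adjusted p = 2.57e-25) and TOP2A (-0.85, adjusted p = 1.92e-38), and 11 were lower and 4 higher in CDKN2A, led by TOP2A (-1.14, adjusted p = 2.14e-41) and MCM7 (-0.83, adjusted p = 3.42e-21). POLA1, TOP2A and MCM7 encode proteins of DNA replication and chromosome handling. In PIK3CA 9 of the 20 were higher and 1 lower, led by RRM2 (0.77, adjusted p = 4.58e-22) and CDC45 (0.42, adjusted p = 0.000435). In GFP versus HCRED 10 were higher and 7 lower, with TOP2A (0.67, adjusted p = 3.04e-35) and CCNA2 (-0.66, adjusted p = 6.03e-12) in opposite directions. In NRF2, FGFR1 and NRG1, 7, 7 and 2 of the 20 passed, with list medians of -0.03, 0.08 and 0.03. There 21.6%, 13.5% and 10.8% of all genes tested passed, in the same order.

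MYBL2, which encodes B-Myb and joins the MuvB complex that p107 and p130 otherwise occupy, was higher than in HCRED in NRF2 (0.74 ± 0.06 SE, adjusted p = 3.16e-17) and PIK3CA (0.74 ± 0.05 SE, adjusted p = 4.18e-19). It was lower than in GFP in FAT1 (-0.77 ± 0.08 SE, adjusted p = 1.23e-12) and CDKN2A (-0.47 ± 0.08 SE, adjusted p = 5.41e-07). Of the 6 genes of this list, at most 3 passed in any comparison of lines. That count was reached in CDKN2A versus GFP and GFP versus HCRED, where 57.6% and 45.0% of all genes tested passed.

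With the chemicals, which were compared with DMSO over all 8 lines, 10 of the 10 members passed with CSC, where 55.6% of all genes tested passed. With each of BaP (51.4%) and NNK (51.7%) 7 passed. With genes kept from a mean count of 10, 6950 of 10204 passed with CSC. Under that filter 6498 of 10099 passed with BaP and 6536 of 10030 with NNK. CCND3 and CDK4 were higher with each chemical, and CDK6, RB1, RBL1 and RBL2 were lower with each. The 3 comparisons share the 24 DMSO samples. The log2 fold changes of all genes followed GC content, with Spearman's rho across genes of 0.71 for CSC, 0.73 for BaP and 0.78 for NNK, against values between -0.20 and 0.21 for the comparisons of lines. Genes are not independent replicates, and these values are a description. Among the members, CCND3 and CDK4 have the highest GC contents (60% and 52%) and RB1, CDK6 and RBL1 the lowest (37.1%, 39.7% and 40%). The members do not follow GC order throughout: with NNK the lowest value was that of CDKN1B (45.9% GC, -0.37), and with CSC CDKN2C (44.9%, -0.35) and CDKN1B (-0.26) lay below RB1 (-0.24). The chemical and this trend of the DMSO libraries cannot be told apart from the labels, so each value is given as counted and after a correction for GC content and transcript length, which was chosen after seeing the data and would also remove a response that itself follows GC content. What sets the trend was not tested. After it 6, 4 and 1 of the 10 members passed, and the shares of all genes with a known GC content were 32.9%, 23.8% and 15.0%.

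**Figure D4:**
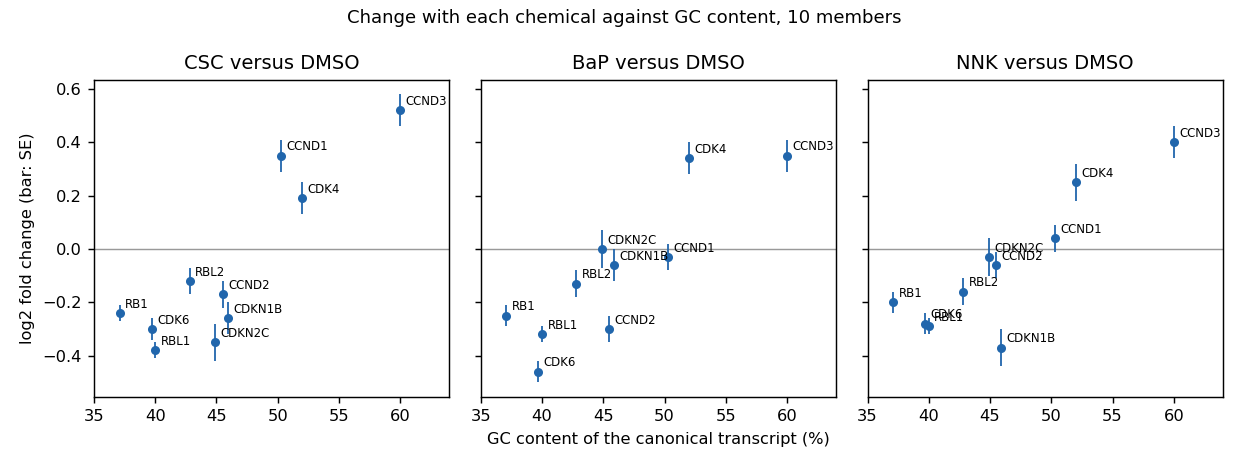
Log2 fold change of the 10 members (vertical axis, ± SE) with CSC, BaP or NNK versus DMSO, as counted, against the GC content of the canonical transcript (horizontal axis, %). RB1, at 37.1%, lies below 0 with each chemical, and CCND3, at 60%, lies above 0 with each.

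CCND1 was higher with CSC and kept its call and size after the correction. Its CPM was 30.7, 110 and 245 (lowest, median, highest) in the 24 DMSO samples and 59.7, 169 and 255 in the 23 CSC samples, ranges that overlap because the lines differ. The mean was higher with CSC in 8 of 8 lines, the log2 fold change was 0.35 ± 0.06 SE (adjusted p = 8.41e-08), and after the correction it was 0.30 ± 0.05 SE (adjusted p = 2.77e-06). With BaP and NNK it did not pass, at -0.03 ± 0.05 SE and 0.04 ± 0.05 SE (corrected -0.09 and -0.03).

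CDKN2C was lower with CSC in 8 of 8 lines, by 0.35 on the log2 scale (SE 0.07, adjusted p = 3.72e-06, corrected -0.24, adjusted p = 0.0021). CDKN1B was lower in 8 of 8 lines with CSC (-0.26 ± 0.06 SE, adjusted p = 0.000216, corrected -0.17, adjusted p = 0.0251) and in 8 of 8 with NNK (-0.37 ± 0.07 SE, adjusted p = 2.65e-06, corrected -0.29, adjusted p = 0.000823). With BaP both were near DMSO, at 0.00 and -0.06, and did not pass. CDKN1B was the only member that passed with NNK after the correction.

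CDK6 and RBL1 were lower in 8 of 8 lines with each of the 3 chemicals. The log2 fold changes of CDK6 were -0.30, -0.46 and -0.28 with CSC, BaP and NNK. After the correction only the one with BaP passed (-0.23 ± 0.04 SE, adjusted p = 1.01e-07), and CSC and NNK gave -0.07 each. Those of RBL1 were -0.38, -0.32 and -0.29, and after the correction those with CSC (-0.14 ± 0.03 SE, adjusted p = 0.000136) and BaP (-0.12 ± 0.03 SE, adjusted p = 0.00171) passed. With NNK the corrected RBL1 value was -0.07. CDK4 was higher by 0.19, 0.34 and 0.25, of which the change with BaP passed after the correction (0.24 ± 0.06 SE, adjusted p = 0.00162). The corrected CDK4 values with CSC and NNK were 0.09 and 0.16. CCND2 was lower over the 8 lines with BaP (-0.30 ± 0.05 SE, adjusted p = 5.22e-07, corrected -0.21, adjusted p = 0.000386), with differences in mean log2 CPM from -0.79 in NRF2 to -0.05 in FGFR1 among the 6 lines with more than a few counts. It was also lower with CSC (-0.17 ± 0.05 SE, adjusted p = 0.00115, corrected -0.09, adjusted p = 0.14). With NNK it did not pass (-0.06 ± 0.05 SE, adjusted p = 0.242, corrected -0.00).

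For RB1, RBL2 and CCND3 the values as counted were not kept. RB1 was lower as counted, at -0.24, -0.25 and -0.20 with CSC, BaP and NNK, and its corrected values were 0.09 (adjusted p = 0.0228), 0.00 (adjusted p = 0.992) and 0.09 (adjusted p = 0.0642), so the sign turned with each chemical, with BaP to a value of 0.00. RBL2 went from -0.12, -0.13 and -0.16 to 0.05, 0.02 and -0.01, none of which passed. The RBL2 calls with CSC and BaP were lost in 5 and 3 alternatives, the correction among them. CCND3 was 0.52, 0.35 and 0.40 higher as counted, in 8 of 8 lines with each chemical, and 0.14 (adjusted p = 0.0299), -0.01 (adjusted p = 0.943) and 0.04 (adjusted p = 0.718) after the correction.

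**Figure D5:**
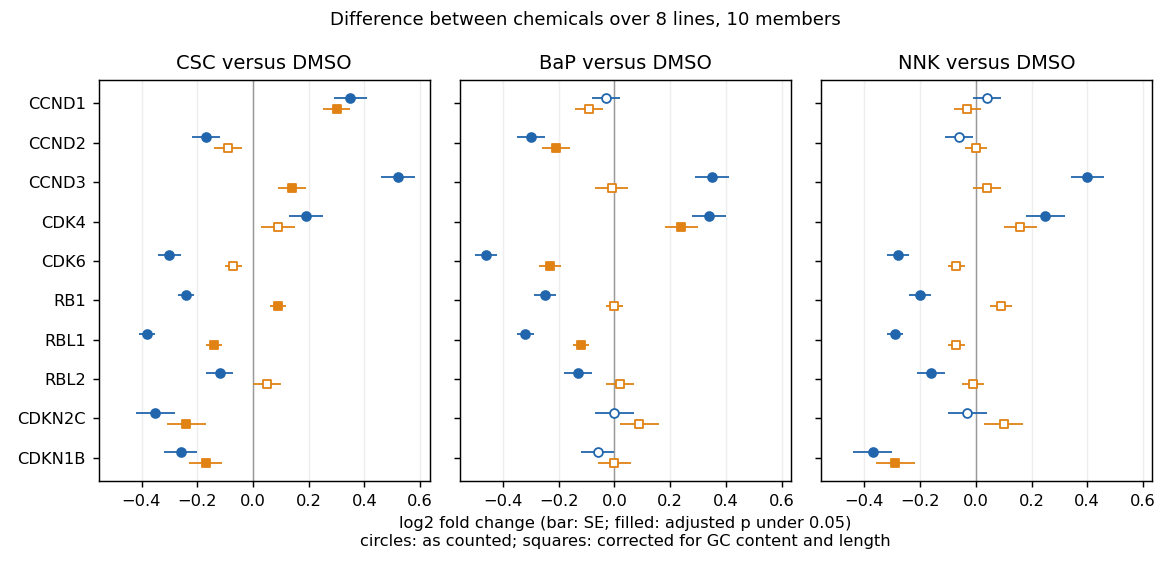
Log2 fold change (horizontal axis, ± SE) of the 10 members with CSC, BaP and NNK versus DMSO over the 8 lines, as counted (circles) and corrected for GC content and transcript length (squares); filled symbols passed an adjusted p of 0.05. With CSC 10 circles and 6 squares are filled, with BaP 7 and 4, and with NNK 7 and 1.

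In the pathway lists, MYC and CDKN1A, which encodes the inhibitor p21, were the G1 regulators with the largest changes with each chemical, and both passed after the correction. With CSC, MYC was 2.27-fold higher (log2 fold change 1.18 ± 0.06 SE, adjusted p = 3.67e-33, corrected 1.19) and CDKN1A 1.96-fold higher (0.97 ± 0.05 SE, adjusted p = 9.56e-35, corrected 0.70). With BaP CDKN1A was 0.98 and MYC 0.78 higher on the log2 scale, and with NNK 0.69 and 0.71. The shares of all genes tested that passed as counted were 55.6%, 51.4% and 51.7% with CSC, BaP and NNK. After the correction they were 32.9%, 23.8% and 15.0% of those with a known GC content. Of the 18 G1 regulators, 14, 12 and 12 passed with CSC, BaP and NNK as counted, and 5, 4 and 3 after the correction. Of the 20 E2F target genes, 17, 17 and 16 passed as counted, with 14, 14 and 13 lower. After the correction 18 passed with CSC, 12 with BaP and 10 with NNK, and of these 18, 12 and 9 were lower. TOP2A was the largest of them with each chemical, at -0.68, -0.53 and -0.51 (corrected -0.41, -0.31 and -0.26). The list medians after the correction were -0.19, -0.15 and -0.11, against medians of all genes within 0.01 of 0.

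The effect of the chemicals on CCND1 differed between lines. The line by chemical interaction passed for CCND1 (adjusted p = 0.000551, limma) and for no other member, and 2.48% of all genes tested passed. The mean change with CSC was 0.93 on the log2 CPM scale in FAT1, 0.72 in FGFR1 (2 CSC samples), 0.46 in GFP, 0.43 in PIK3CA, 0.41 in HCRED, 0.16 in CDKN2A, 0.10 in NRG1 and 0.06 in NRF2. With NNK it was 0.41 in FAT1, -0.43 in GFP and -0.45 in NRF2, and with BaP it was -0.64 in NRF2.

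In single samples, chosen after their values were seen, CCND1 in FAT1 cells was at 30.7, 39.5 and 50.7 CPM with DMSO and at 71.6, 75.2 and 86.1 with CSC, with no overlap. In NRG1 cells it was at 202, 218 and 245 CPM with DMSO and at 214, 245 and 255 with CSC, which overlap. In NRF2 cells it was at 90.9, 94.1 and 95.4 CPM with DMSO and at 48.5, 61.1 and 69.4 with BaP. The interaction passed after the correction too (adjusted p = 0.000718), but not without replicate 1, without replicate 3 or without the DMSO-treated samples (adjusted p = 0.102). For CCND2 the interaction gave an adjusted p of 0.915 with limma and 0.00672 with edgeR, and its counts in GFP and CDKN2A are too few to follow by chemical.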

How the data were processed

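The authors deposited 1 table of raw counts per sample, made per the labels by trimming with cutadapt 1.12, alignment to hg19 with STAR 2.5.2b and counting of reads per RefSeq gene with featureCounts. The strand setting is not given in the sources used here. Groups came from the labels, and no other column was used. The 10 members, the pathway lists and the markers were chosen with earlier results of these data known.

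From the counts, limma 3.58.1 (voom, TMM factors from edgeR 4.0.16, R 4.3.3) was fitted to the samples of each comparison, over genes with a mean count above 1. Lines were compared with chemical as a term, and chemicals with line as a term. P-values were 2-sided and Benjamini-Hochberg adjusted over all genes tested, with a threshold of 0.05. The interaction was a moderated F test over 95 samples. The scripts were tested on simulated data. CPM used the TMM-scaled library size, and log2 CPM a prior count of 2. CPM per kb used the length of the canonical GRCh37 transcript. From each pathway list, the 2 genes with the largest absolute change among those past the threshold and with a mean count of at least 10 could be named, besides the members and perturbed genes.

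Replicates of 1 group differed by more than sampling noise (chi-square per degree of freedom 1.13 to 2.65). Same-numbered samples did not deviate together (mean r between -0.006 and 0.023), so the main fits have no replicate block. Alternatives were other size factors, edgeR, DESeq2 1.42.0, other count filters, the block, each replicate left out, DMSO alone, and, chosen after seeing the data, no DMSO and a correction. For the correction, a loess curve (span 0.3) of the voom values on GC content and transcript length was fitted and subtracted in each sample, for the 22494 of 27978 symbols matched (80.4%, about 92% of genes tested). Depth of 287446 to 2116383 reads per sample limits genes with few counts, and a floor of 3 counts covers counting error only.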

Additional observations from a re-analysis of the deposited data

Results flagged for a closer look

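The change in CCND1 with the chemicals differed between lines, by the test of the interaction itself (adjusted p = 0.000551, limma over 95 samples). The mean difference from DMSO on the log2 CPM scale ran from 0.06 in NRF2 to 0.93 in FAT1 with CSC, and all 8 lines were higher. With BaP it ran from -0.64 in NRF2 to 0.26 in FAT1, with 4 lines higher and 4 lower, and with NNK from -0.45 in NRF2 to 0.41 in FAT1, with 5 higher and 3 lower. The interaction passed after the correction for GC content and transcript length too (adjusted p = 0.000718), but not without replicate 1, without replicate 3 or without the DMSO-treated samples (adjusted p = 0.102). What sets the difference was not tested.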

How the results depend on the processing

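Over 1056 refits of single members, 984 kept their side of the threshold, 56 lost the threshold, 10 gained it and 6 turned direction. A turn was counted only where the main fit or the refit passed. Values that passed in neither could change sign and are among the 984, such as CCND1 in FAT1 (0.06, and -0.37 with DMSO alone). The 6 that turned did so with the correction for GC content and transcript length: RB1 with CSC (0.09), BaP (0.00) and NNK (0.09), RBL2 with CSC (0.05) and BaP (0.02), and CCND3 with BaP (-0.01). With it 6 members passed with CSC, 4 with BaP, 1 with NNK, 2 in NRG1, 6 in FAT1 (RBL1 lost), 4 in NRF2 (RBL2 gained) and 6 in GFP versus HCRED (CCND3 and RBL1 gained, CDK6 lost). The cause was not tested. Of all genes with a known GC content, 32.9%, 23.8% and 15.0% passed after the correction with CSC, BaP and NNK. The shares were 13.3% in NRG1, 51.0% in FAT1, 22.6% in NRF2 and 47.4% in GFP versus HCRED. NRG1 also had 2 with DESeq2 size factors (1530 of 14210 genes passed) and with genes kept from a mean count of 10 (1409 of 9980). In DMSO-treated samples alone, with 3 samples per line, FAT1 and CDKN2A had 6 each, NRF2 2, FGFR1 1, NRG1 1, PIK3CA 0 and GFP versus HCRED 3. Of all genes tested, 3752 of 14266 passed there in FAT1, 5408 of 14540 in CDKN2A, 1005 of 14035 in NRF2 and 265 of 14214 in FGFR1. In NRG1 287 of 14053 passed, in PIK3CA 1228 of 14278 and in GFP versus HCRED 2518 of 14218. With a replicate left out, members passing ranged from 1 to 4 in FGFR1, 2 to 3 in PIK3CA, 6 to 7 in FAT1, 8 to 9 in CDKN2A, 4 to 5 in GFP versus HCRED, 8 to 10 with CSC, 6 to 7 with BaP and 0 to 1 for the interaction, and stayed at 3 in NRF2, 1 in NRG1 and 7 with NNK. Over all genes, the number passing in these refits was 0.471 to 0.883 of that in the main fit for the lines. For the chemicals it was 0.812 to 0.864 of the main number, and for the interaction 0.373 to 1.14. The interaction had 2 members by edgeR, where 262 of 14384 genes tested passed, and 2 by DESeq2, where 152 did. It had 0 without DMSO-treated samples. Without those samples the lines had 6 (FAT1), 9 (CDKN2A), 3 (NRF2), 5 (FGFR1), 1 (NRG1), 4 (PIK3CA) and 5 (GFP versus HCRED). No count over all genes was made for the fits without DMSO-treated samples. The replicate block kept 92 of 93 results, and RB1 in NRF2 then passed (-0.14), so that NRF2 had 4. The CCND2 difference between the highest and lowest line was 6.31 on the log2 scale with a prior count of 0.5. Depth limits CCND2 in GFP and CDKN2A, at 0 to 25 counts.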
